A study of Cricetulus griseus with 9 samples.

Results

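Molecular chaperones and protein folding enzymes were compared at the RNA level in MI5-4 cells, a subline of Chinese hamster ovary (CHO) cells. The 76 genes were taken by symbol from a table of 6753 genes: heat shock proteins (Hsp), proteins with a J domain (Dnaj), the cytosolic chaperonin (Cct2 to Cct8 and TCP1), prefoldin (Pfdn), BAG-family co-chaperones (Bag1 to Bag6), the co-chaperones Stip1 and Ahsa1, the heat shock transcription factors Hsf1 and Hsf2, FK506-binding proteins (Fkbp), cyclophilins (Ppia to Ppih) and protein disulfide isomerases (Pdia). Hspa5, which the same symbol pattern matches, was left out, and Hspa8, Hspa9, Hsp90ab1 and Hspe1 were not analysed here. The symbol rule itself uses no measured value, but it was written with earlier results of these data known. The 9 libraries, made from total RNA by an mRNA kit, formed 3 groups of 3. EV libraries came from cells with an empty vector, described in the series as lacking hexokinase, and the libraries labelled WTHK2 came from cells described as expressing wild-type hexokinase 2. LAC libraries came from EV cells kept for 24 h with sodium lactate at 10 mM. WTHK2 on its own stands here for the libraries so labelled. All 3 groups share the 1 subline, and the labels name neither the promoter of the HK2 construct nor whether the cells are clones, nor whether the 3 libraries of a group were separate cultures. Where they were not, the p-values measure technical spread. A sodium salt control without lactate was not analysed here, so sodium and lactate cannot be told apart.

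Chaperones bind proteins that are not yet folded or have lost their fold. HSP70 proteins bind short exposed stretches in a cycle driven by ATP; J-domain proteins bring them substrates and start ATP hydrolysis, and exchange factors such as BAG proteins, Hspbp1 and Hsph1 release the nucleotide. HSP90 acts later, on partly folded clients such as kinases and steroid receptors, and Stip1 hands clients from HSP70 to HSP90. Prefoldin delivers newly made actin and tubulin to the ring-shaped chaperonin, which encloses them. Cyclophilins and FKBPs turn the bonds before proline residues, and protein disulfide isomerases form and rearrange disulfide bonds in the endoplasmic reticulum. Heat shock factors switch on many cytosolic members when unfolded protein gathers, whereas several members of the endoplasmic reticulum, among them Hsp90b1 and Pdia4, are known targets of the unfolded protein response. CHO cells are widely used to make secreted proteins, a use in which the folding machinery of the endoplasmic reticulum is of interest.

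Values are CPM, the authors' normalized read counts on a common library size, and they are compared here between libraries for 1 gene, not between genes, because CPM does not account for transcript length. The members' summed share of CPM and ranks within a library, given below, are exceptions. Effective library sizes ran from 18050959 to 26238659 reads, and no member had fewer than 396 reads in a library, for which counting alone gives a coefficient of variation of 5.03%. The targeted gene did not set the groups apart as labelled: Hk2 (hexokinase 2) was 67.3 ± 2.11 CPM in EV and 65.3 ± 1.33 in the libraries labelled WTHK2 (SD, n = 3 each), a limma difference of -0.044 with an adjusted p of 0.522. Of 4 hexokinases looked for, 2 were in the table, Hk2 and another. At an adjusted p under 0.05, 0 were higher and 1 lower in WTHK2, and likewise 0 and 1 in LAC. Their median log2 differences were -0.11 and -0.044. Whether reads of the construct would be counted at Hk2 is not given in the sources used here, so every direction for WTHK2 rests on the label alone. The 4 mitochondrially encoded transcripts in the table were above their EV mean by a median log2 of 0.73, 0.45 and 0.40 in WTHK2 replicates 1 to 3 and 0.80, 0.52 and 0.45 in LAC, with the first replicate furthest from EV in both groups. Of 49 listed genes that code for proteins of more than 2500 residues, 39 were lower in WTHK2 and 44 in LAC and 0 were higher, with median log2 differences of -0.26 and -0.28. The part of these shifts, and of RNA quality, in the members' differences was not tested. Leukocyte and epithelial markers (0 of 5 each) were not among the genes listed.

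When the libraries labelled WTHK2 were set against EV, 29 of the 76 members were higher and 8 were lower at an adjusted p under 0.05 (limma on log2(CPM + 1), Benjamini-Hochberg over all 6753 genes, the test behind every adjusted p given here). That is 48.68% of the members, beside 46.4% of all genes called, so the share of members called was close to the background. The directions were more uneven: 21.0% of all genes were called higher and 25.4% lower, and 78.4% of the members' calls were higher against 45.3% of the calls over all genes. The median member stood at a log2 difference of 0.080, against -0.0082 over all genes. LAC against EV gave 33 higher and 10 lower members, 56.58% of them, where 49.5% of all genes were called, 22.4% higher and 27.1% lower. There the median member was at 0.085 and the median gene at -0.0035. The lower counts depended on single libraries: the 8 lower members in WTHK2 were 4 without EV replicate 1, EV replicate 3 or WTHK2 replicate 1 and 3 without EV replicate 2 or WTHK2 replicate 3, and the 10 in LAC were 6 without LAC replicate 1. In bulk libraries, a change in every cell and a change in a share of the cells cannot be told apart. Both comparisons use the same EV libraries and are therefore not independent of each other.

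The differences were small. The largest was 1.30-fold in WTHK2 (Hsp90b1) and 1.31-fold, downward, in LAC (Dnajc13), and the median member differed by 1.08-fold in WTHK2 whatever its direction, beside 1.10-fold for all genes. In WTHK2, 40 members had all 3 libraries above the highest EV library and 15 had all 3 below the lowest. Over all genes 57.1% did not overlap, 26.6% above and 30.5% below. In LAC the counts were 39 and 12, where 57.8% of all genes did not overlap, 27.0% above and 30.8% below. Together the members held 2.37% to 2.41% of the listed CPM in the EV libraries, 2.56% to 2.58% in WTHK2 and 2.50% to 2.53% in LAC. Such a sum weighs the members with the most reads and does not describe the typical member. Mean CPM in EV, WTHK2 and LAC was 1472, 1912 and 1617 for Hsp90b1 and 2035, 2369 and 2347 for PPIA. Rescaling every library to the same median moved no library by more than 0.031 on the log2 scale. It moved all 3 EV libraries down and all others up. The median member went from 0.080 to 0.116 in WTHK2 and from 0.085 to 0.127 in LAC. The median gene went from -0.0082 to 0.027 and from -0.0035 to 0.038. The split of calls changed to 41 higher and 2 lower in WTHK2 and to 44 and 8 in LAC. Over all genes the higher share of calls went from 45.3% to 57.4% and from 45.3% to 58.6%. With WTHK2 replicate 1 and LAC replicate 1 both left out, 28 members were higher and 7 lower in WTHK2 and 26 were higher and 11 lower in LAC.

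**Figure D1:**
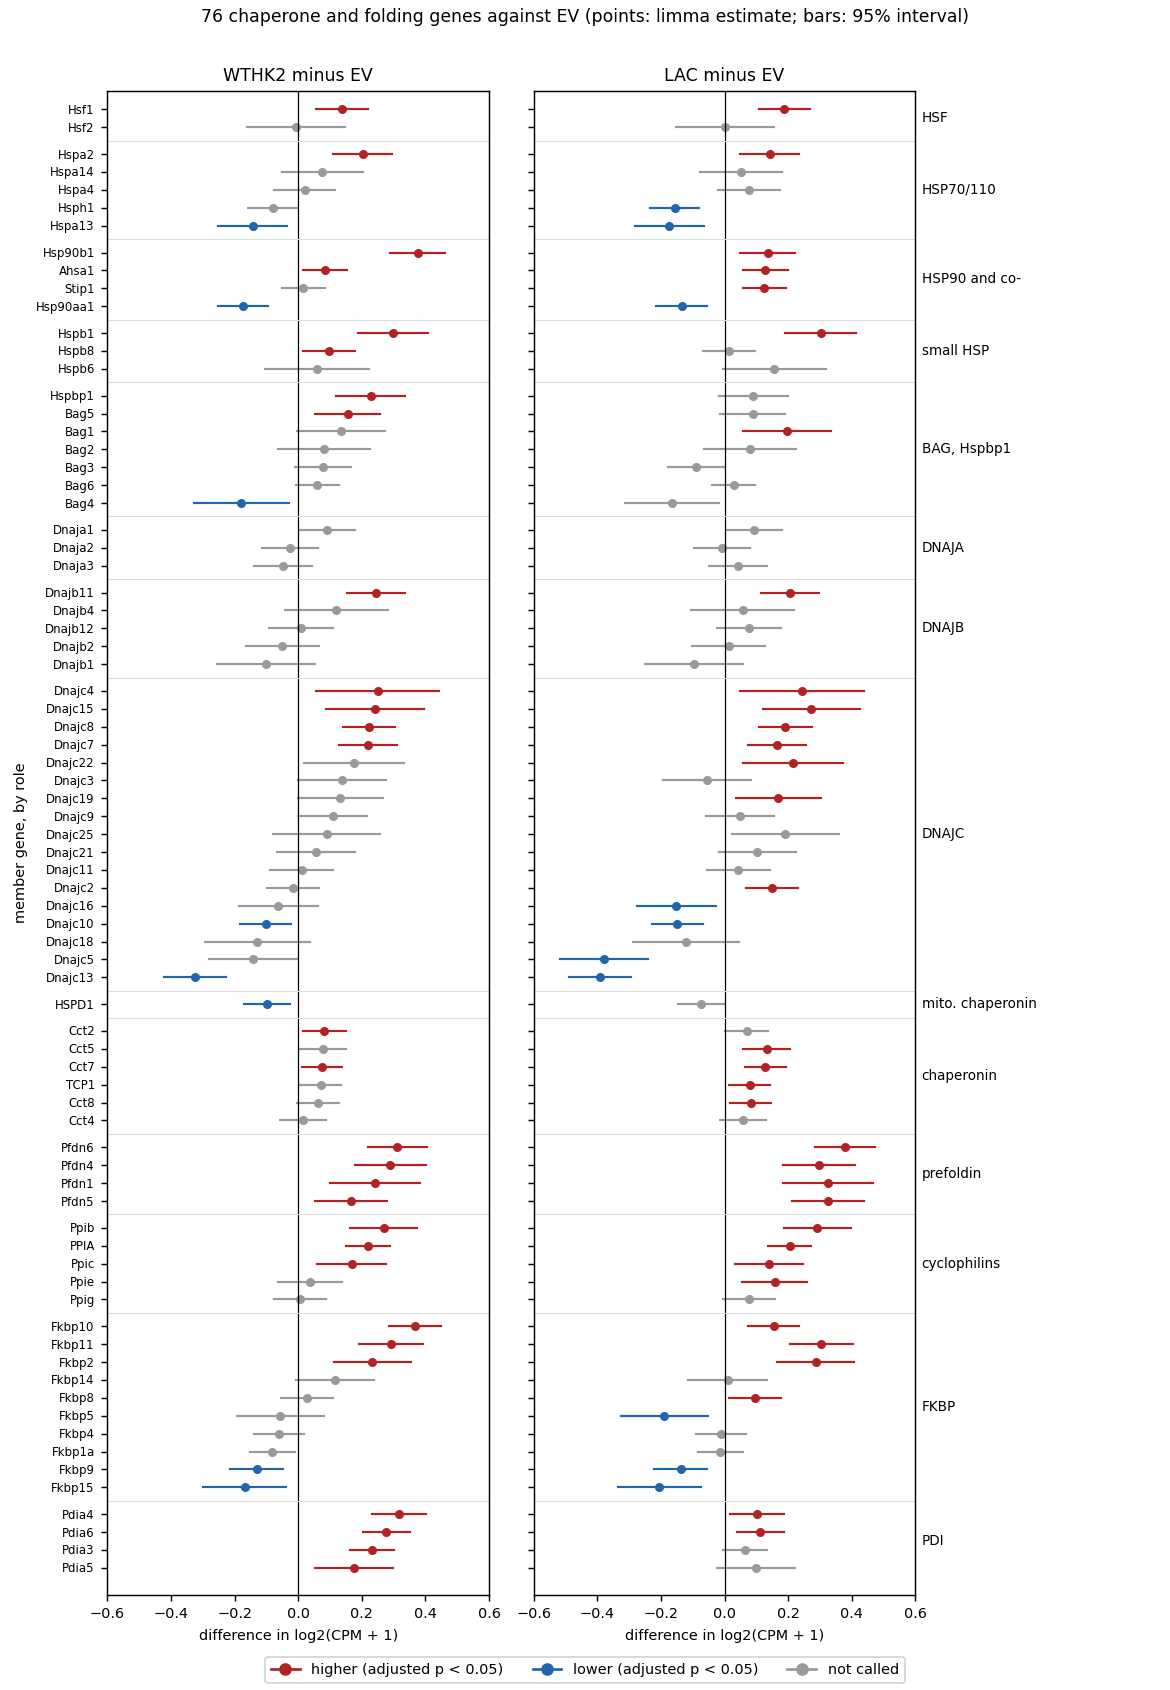
Difference from EV in log2(CPM + 1) for each of the 76 members, grouped by role, with the libraries labelled WTHK2 on the left and LAC on the right. Points are limma estimates from 3 libraries a group, bars are 95% intervals, and colour marks an adjusted p under 0.05. All points of prefoldin, the protein disulfide isomerases, the cytosolic chaperonin, the cyclophilins and the small heat shock proteins lie to the right of 0 in both panels. Dnajc13 lies furthest to the left.

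The regulators of the heat shock response were Hsf1, the main stress-activated factor, and Hsf2, a related factor that can pair with it. Hsf1 was measured at 204, 192 and 197 CPM in the EV libraries, 219, 215 and 218 in those labelled WTHK2 and 223, 219.6 and 234 in LAC. Every library of the last 2 groups lay above the highest EV library. Hsf1 rose by 0.14 (SE 0.039, adjusted p = 0.00686) in WTHK2 and by 0.19 (SE 0.039, adjusted p = 0.000533) in LAC on the log2 scale, and both calls held in all 21 alternative settings. The genes listed next to it in the genome (7 on each side) had median differences of 0.16 and 0.14, of the same size as its own. Hsf2 was measured at 37.3, 36.7 and 36.6 CPM in the EV libraries, 35.1, 36.9 and 38.0 in those labelled WTHK2 and 40.2, 32.7 and 38.2 in LAC, and the groups overlapped. Its differences were -0.0080 (95% interval -0.16 to 0.15) and 0.0012 (-0.15 to 0.16), and their sign changed with the setting.

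The 5 HSP70 and HSP110 members did not move in 1 direction. Hspa2, an HSP70 best known from the testis, was measured at 120.4, 120.2 and 121 CPM in the EV libraries, 135, 139 and 142 in those labelled WTHK2 and 135, 126 and 139 in LAC. All libraries outside EV were higher than the EV libraries, which lay close together. Hspa2 rose by 0.20 (SE 0.045, adjusted p = 0.00107) in WTHK2 and by 0.14 (SE 0.045, adjusted p = 0.0123) in LAC; the LAC call was lost without LAC replicate 3 (adjusted p = 0.0695). Hspa13, an HSP70-like protein bound to microsomes, was measured at 112, 112 and 108 CPM in the EV libraries, 98.3, 101 and 99.8 in those labelled WTHK2 and 98.2, 105 and 90.1 in LAC, and every library outside EV was lower. Hspa13 fell by 0.14 (SE 0.052, adjusted p = 0.0295) in WTHK2 and fell by 0.17 (SE 0.052, adjusted p = 0.00915) in LAC. Hspa13 lost its call in WTHK2 without EV replicate 1 or 2, or WTHK2 replicate 1 or 3, and in 3 other settings (adjusted p = 0.0505 to 0.0898). Hspa13 lost its call in LAC without LAC replicate 3 (adjusted p = 0.0771).

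Hsph1, an HSP110 protein that acts as an exchange factor for HSP70, was measured at 259, 243 and 243 CPM in the EV libraries, 231, 235 and 239 in those labelled WTHK2 and 223, 224 and 221 in LAC. Its LAC libraries formed the lowest group, the libraries labelled WTHK2 lay between them and EV, and no library of the 3 groups overlapped another group. The difference between WTHK2 and LAC did not pass (adjusted p = 0.17). Hsph1 fell by 0.16 (SE 0.038, adjusted p = 0.00186) in LAC, a call that held in all 21 alternatives, while the difference of -0.079 in WTHK2 (adjusted p = 0.0912) did not pass. The other members did not pass in either comparison: Hspa4, the second HSP110 protein, stood at 0.020 in WTHK2 and 0.077 in LAC, and Hspa14, which works at the ribosome, at 0.076 and 0.052.

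Within the HSP90 group, the cytosolic and the endoplasmic reticulum chaperone went opposite ways. Hsp90aa1, the stress-inducible cytosolic HSP90, was measured at 825, 817 and 806 CPM in the EV libraries, 699, 745 and 727 in those labelled WTHK2 and 696, 768 and 768 in LAC. The 6 libraries outside EV were all lower, with the first replicate the lowest in both groups. Hsp90aa1 fell by 0.17 (SE 0.038, adjusted p = 0.00104) in WTHK2 and fell by 0.13 (SE 0.038, adjusted p = 0.00635) in LAC. Hsp90aa1 lost its call in LAC without LAC replicate 1 (adjusted p = 0.0608). Its LAC difference was then -0.088. Hsp90b1, the HSP90 of the endoplasmic reticulum (GRP94), was measured at 1518, 1422 and 1476 CPM in the EV libraries, 2062, 1819 and 1855 in those labelled WTHK2 and 1689, 1598 and 1566 in LAC. Here the 6 libraries were all higher than EV, and WTHK2 and LAC did not overlap. The first replicate, which also had the highest mitochondrially encoded transcripts, was the highest of each group, and its part was not tested. Hsp90b1 rose by 0.38 (SE 0.042, adjusted p = 9.11e-07) in WTHK2, the largest rise among the members, and rose by 0.14 (SE 0.042, adjusted p = 0.0115) in LAC. Hsp90b1 lost its call in LAC without EV replicate 2, or LAC replicate 1, and in 2 other settings (adjusted p = 0.0632 to 0.686). Quantile normalization, which gives all libraries 1 set of values by rank, lowered its WTHK2 difference to 0.16, which still passed, and its LAC difference to 0.023; the gene ranks between 14 and 21 of 6753 in every library, where few values are left to take.

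Stip1 (Hop), the adaptor between HSP70 and HSP90, was measured at 465, 455 and 463 CPM in the EV libraries, 462, 480.3 and 456 in those labelled WTHK2 and 509, 504 and 496 in LAC. The LAC libraries stood above all others, and the libraries labelled WTHK2 overlapped EV. Stip1 rose by 0.13 (SE 0.033, adjusted p = 0.0038) in LAC but stood at 0.016 in WTHK2 (95% interval -0.052 to 0.085). Quantile normalization ended the LAC call (0.064, adjusted p = 0.094). Ahsa1, which stimulates the ATPase of HSP90, was measured at 292, 288 and 288 CPM in the EV libraries, 307, 309 and 305 in those labelled WTHK2 and 319.8, 310.0 and 320.1 in LAC. All 6 libraries outside EV were above it. Ahsa1 rose by 0.13 (SE 0.034, adjusted p = 0.00396) in LAC, where the call held throughout, and rose by 0.084 (SE 0.034, adjusted p = 0.0477) in WTHK2. Ahsa1 lost its call in WTHK2 without EV replicate 1, 2 or 3, WTHK2 replicate 1, 2 or 3, or LAC replicate 1 or 3, and in 2 other settings (adjusted p = 0.0511 to 0.126).

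The small heat shock proteins hold unfolded proteins in a soluble state without using ATP. Hspb1 (HSP27) was measured at 115, 108 and 111 CPM in the EV libraries, 139.9, 132 and 139 in those labelled WTHK2 and 145, 124 and 144 in LAC. Both groups lay above EV and overlapped each other. Hspb1 rose by 0.30 (SE 0.053, adjusted p = 0.000166) in WTHK2 and by 0.30 (SE 0.053, adjusted p = 0.000129) in LAC, among the larger rises of a cytosolic member, and both calls held in all 21 alternatives. Hspb8, which works with Bag3 in the disposal of aggregates, was measured at 169, 163 and 174 CPM in the EV libraries, 177, 183 and 181 in those labelled WTHK2 and 169.9, 169 and 172 in LAC. Only the libraries labelled WTHK2 lay above the EV range. Hspb8 rose by 0.097 (SE 0.039, adjusted p = 0.0483) there, close to the threshold, and stood at 0.016 (95% interval -0.066 to 0.097) in LAC. Between WTHK2 and LAC, Hspb8 did not pass (adjusted p = 0.172). Hspb8 lost its call in WTHK2 without EV replicate 1 or 2, WTHK2 replicate 2 or 3, or LAC replicate 1 or 3, and in 2 other settings (adjusted p = 0.0513 to 0.207). Hspb6 did not pass in either comparison (0.059 and 0.16).

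The BAG proteins and Hspbp1, 7 members, mostly act on the nucleotide cycle of HSP70. In WTHK2, 2 were higher and 1 was lower, and in LAC 1 was higher. Over all genes 46.4% were called in WTHK2 and 49.5% in LAC, in either direction. Hspbp1 was measured at 101, 103 and 97.2 CPM in the EV libraries, 112, 117 and 125 in those labelled WTHK2 and 108, 101 and 112 in LAC. The libraries labelled WTHK2 were the highest, and EV and LAC overlapped. Hspbp1 rose by 0.23 (SE 0.052, adjusted p = 0.00141) in WTHK2, held in all 21 alternatives, and stood at 0.091 (adjusted p = 0.152) in LAC. Bag5, a BAG protein with several BAG domains, was measured at 94.1, 87.6 and 96.3 CPM in the EV libraries, 105, 102 and 103 in those labelled WTHK2 and 96.4, 96.3 and 103 in LAC, so that again only WTHK2 was clear of EV. Bag5 rose by 0.16 (SE 0.049, adjusted p = 0.0136) in WTHK2 and stood at 0.088 in LAC. Neither Hspbp1 nor Bag5 passed between WTHK2 and LAC (adjusted p = 0.079 and 0.387). Bag5 lost its call in WTHK2 without EV replicate 2 (adjusted p = 0.0954).

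Bag1, an exchange factor that links HSP70 to the proteasome, was measured at 37.8, 38.9 and 42.0 CPM in the EV libraries, 41.2, 44.2 and 45.3 in those labelled WTHK2 and 45.9, 43.2 and 47.3 in LAC. Its LAC libraries were above the EV range, and WTHK2 overlapped both. Bag1 rose by 0.20 (SE 0.066, adjusted p = 0.0184) in LAC and stood at 0.14 (adjusted p = 0.0988) in WTHK2. Between WTHK2 and LAC, Bag1 did not pass (adjusted p = 0.587). Bag1 lost its call in LAC without EV replicate 1 or 2, or LAC replicate 3 (adjusted p = 0.0595 to 0.0846). Bag4, known as a silencer of death receptors, was measured at 35.8, 35.1 and 33.6 CPM in the EV libraries, 28.9, 33.2 and 29.9 in those labelled WTHK2 and 29.9, 31.4 and 31.5 in LAC, with all 6 libraries outside EV below it. Bag4 fell by 0.18 (SE 0.071, adjusted p = 0.0453) in WTHK2 and stood at -0.17 (adjusted p = 0.0601) in LAC. Bag4 lost its call in WTHK2 without EV replicate 1, 2 or 3, or WTHK2 replicate 1 or 3, and in 4 other settings (adjusted p = 0.0516 to 0.162). Bag2, Bag3 and Bag6 did not pass against EV; their differences lay between 0.060 and 0.081 in WTHK2 and between -0.089 and 0.080 in LAC.

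**Figure D2:**
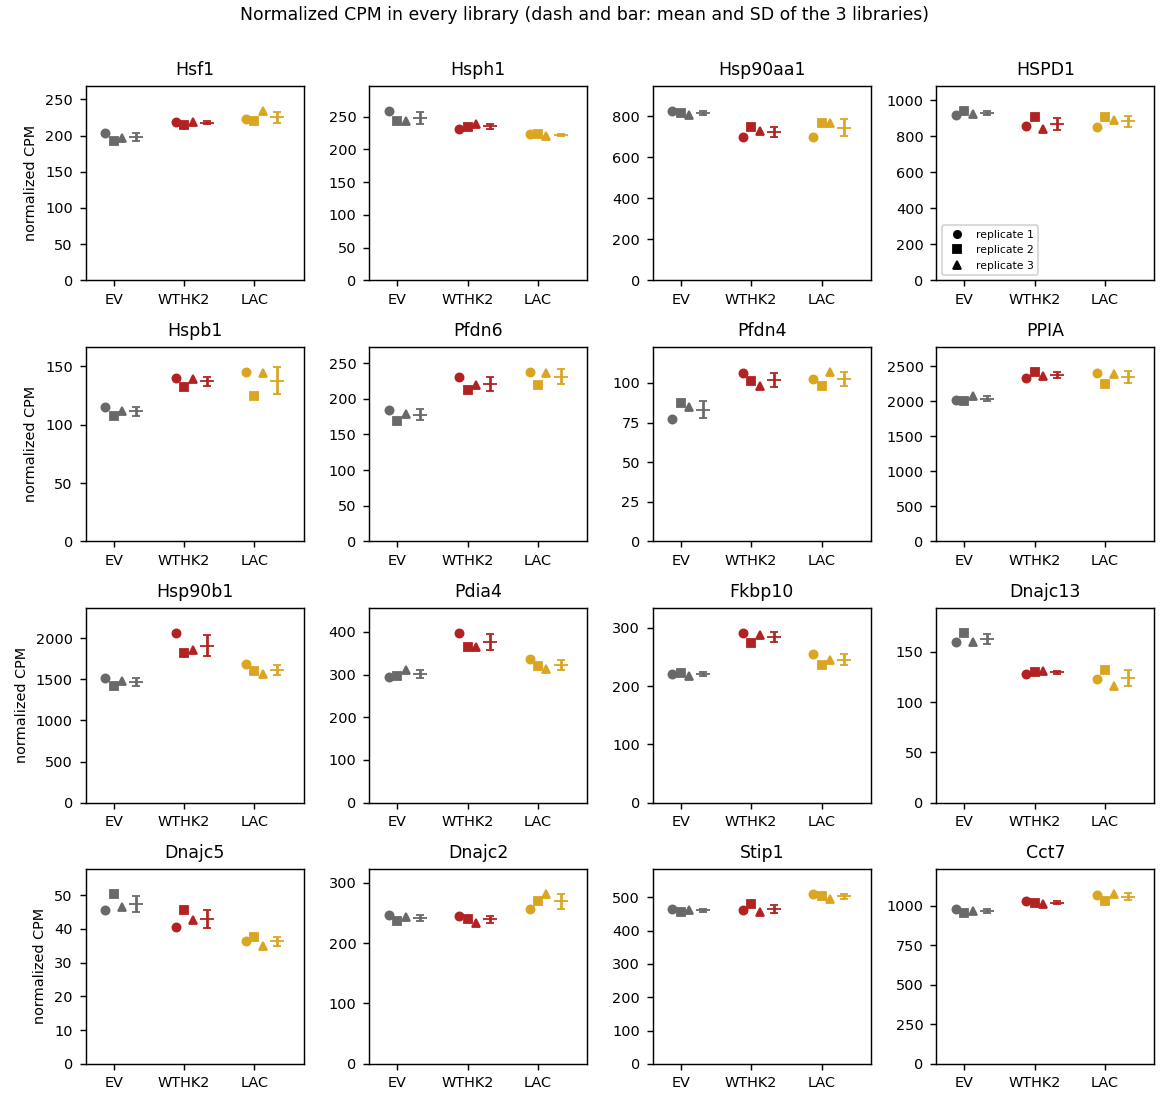
Normalized CPM of 16 members in each of the 9 libraries, on axes that start at 0; symbols mark the replicate number, and the dash and bar give the mean and SD of the 3 libraries of a group. Hsp90aa1 and HSPD1 stand below EV in both other groups, Hspb1, Pfdn6 and PPIA stand above it, and Hsp90b1, Pdia4 and Fkbp10 are highest in the libraries labelled WTHK2.

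J-domain proteins, the largest family here, divide into 3 classes by the domains they share with bacterial DnaJ. None of the 3 DNAJA members passed against EV. Dnaja2, a cytosolic partner of HSP70, was measured at 163, 157 and 164 CPM in the EV libraries, 152, 166 and 157 in those labelled WTHK2 and 158, 160.5 and 163 in LAC, and the groups overlapped. Its differences were -0.027 (95% interval -0.12 to 0.062) in WTHK2 and -0.0087 (-0.097 to 0.080) in LAC, and rescaling to the same median changed the sign of both. Dnaja1 stood at 0.090 and 0.093 and the mitochondrial Dnaja3 at -0.047 and 0.041. Of the 5 DNAJB members, only Dnajb11, the J-domain protein that serves the HSP70 of the endoplasmic reticulum, passed. Dnajb11 was measured at 106, 104 and 107 CPM in the EV libraries, 127, 122 and 128 in those labelled WTHK2 and 126, 120.0 and 120.2 in LAC, so all 6 libraries outside EV lay above it. Dnajb11 rose by 0.24 (SE 0.044, adjusted p = 0.000169) in WTHK2 and by 0.20 (SE 0.044, adjusted p = 0.000753) in LAC, and both calls held in all 21 alternatives. Dnajb1, a known target of heat shock factors, stood at -0.10 (adjusted p = 0.273) and -0.096 (adjusted p = 0.289).

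The 17 DNAJC members are the most varied in structure and place. In WTHK2, 4 were higher and 2 were lower, and in LAC 7 were higher and 4 were lower. Of all genes, 46.4% were called in WTHK2 and 49.5% in LAC, in either direction. Dnajc13 (RME-8), a large protein of early endosomes, was measured at 160.2, 169 and 159.7 CPM in the EV libraries, 128, 129.8 and 131 in those labelled WTHK2 and 123, 132 and 116 in LAC. All 6 libraries outside EV were lower, with no overlap. Dnajc13 fell by 0.32 (SE 0.047, adjusted p = 1.86e-05) in WTHK2 and fell by 0.39 (SE 0.047, adjusted p = 3.02e-06) in LAC, the largest fall of any member in each, and both calls held in all 21 alternatives. Its neighbours in the genome had median differences of -0.13 and -0.10, and genes coding for very long proteins had lower values there too; their part in the fall was not tested. Dnajc5, the cysteine string protein of secretory vesicles, was measured at 45.7, 50.3 and 46.6 CPM in the EV libraries, 40.6, 45.7 and 42.6 in those labelled WTHK2 and 36.3, 37.7 and 35.0 in LAC. The LAC libraries were the lowest, the libraries labelled WTHK2 came next, and the 3 groups did not overlap. Dnajc5 fell by 0.38 (SE 0.066, adjusted p = 0.000122) in LAC and stood at -0.14 (adjusted p = 0.0835) in WTHK2. Dnajc2, a partner of HSP70 at the ribosome, was measured at 247, 237 and 243 CPM in the EV libraries, 245, 239.8 and 234 in those labelled WTHK2 and 257, 269.6 and 281 in LAC, with LAC above both other groups. Dnajc2 rose by 0.15 (SE 0.039, adjusted p = 0.00384) in LAC, a call that held in all 21 alternatives, and stood at -0.018 in WTHK2.

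Dnajc15, a J-domain protein of the mitochondrial inner membrane, was measured at 33.4, 28.7 and 29.8 CPM in the EV libraries, 34.7, 39.0 and 35.5 in those labelled WTHK2 and 37.9, 37.8 and 35.9 in LAC. EV was the lowest group. Dnajc15 rose by 0.24 (SE 0.073, adjusted p = 0.0111) in WTHK2 and by 0.27 (SE 0.073, adjusted p = 0.00452) in LAC. Dnajc15 lost its call in WTHK2 without EV replicate 2, or WTHK2 replicate 2 (adjusted p = 0.0662 to 0.0672). Dnajc4 was measured at 19.8, 19.5 and 21.8 CPM in the EV libraries, 23.8, 25.2 and 24.2 in those labelled WTHK2 and 28.6, 21.3 and 23.5 in LAC; LAC replicate 2 lay within the EV range. Dnajc4 rose by 0.25 (SE 0.093, adjusted p = 0.0341) in WTHK2 and by 0.24 (SE 0.093, adjusted p = 0.0356) in LAC. Dnajc4 lost its call in WTHK2 without EV replicate 1 or 2, or WTHK2 replicate 2 or 3, and in 1 other setting (adjusted p = 0.0551 to 0.117). Dnajc4 lost its call in LAC without EV replicate 1 or 2, or LAC replicate 1 or 3, and in 2 other settings (adjusted p = 0.054 to 0.261). Without LAC replicate 1 its LAC difference was 0.13. Dnajc7, which carries clients between HSP70 and HSP90, rose by 0.22 and 0.16, and Dnajc8, a nuclear protein linked to splicing, rose by 0.22 and 0.19. Dnajc10, a disulfide reductase of the endoplasmic reticulum, fell by 0.10 and 0.15; the WTHK2 call was lost without EV replicate 2 or 3, or WTHK2 replicate 2 or 3, and in 3 other settings (adjusted p = 0.0649 to 0.164). Dnajc19 (0.17) and Dnajc22 (0.22) passed upward in LAC and Dnajc16 (-0.15) downward, while their WTHK2 differences of 0.13, 0.18 and -0.062 did not pass. None of the 3 passed between WTHK2 and LAC (adjusted p = 0.75, 0.772 and 0.34). Dnajc19 lost its call in LAC without EV replicate 1 or 2, or LAC replicate 1 or 2, and in 1 other setting (adjusted p = 0.0644 to 0.148). Dnajc22 lost its call in LAC without EV replicate 2, or LAC replicate 1, and in 1 other setting (adjusted p = 0.0528 to 0.112). Dnajc16 lost its call in LAC without EV replicate 1 or 3, or LAC replicate 1, 2 or 3, and in 3 other settings (adjusted p = 0.0515 to 0.14).

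All 6 measured subunits of the cytosolic chaperonin stood slightly above EV, by 0.014 to 0.081 in WTHK2 and by 0.059 to 0.13 in LAC. Of these, 2 passed in WTHK2 and 4 in LAC, beside 21.0% and 22.4% of all genes called higher. TCP1, the founding subunit (CCT1), was measured at 596, 579.6 and 580.3 CPM in the EV libraries, 617, 616 and 611 in those labelled WTHK2 and 625, 609 and 621 in LAC. The 6 libraries outside EV were all higher, by a few percent. TCP1 rose by 0.079 (SE 0.031, adjusted p = 0.0405) in LAC and stood at 0.071 (adjusted p = 0.0666) in WTHK2. TCP1 lost its call in LAC without EV replicate 1, 2 or 3, WTHK2 replicate 3, or LAC replicate 1 or 3, and in 2 other settings (adjusted p = 0.0506 to 0.132). Cct7 was measured at 978, 954 and 965 CPM in the EV libraries, 1026, 1014 and 1012 in those labelled WTHK2 and 1067, 1031 and 1070.1 in LAC, and its LAC libraries lay above those labelled WTHK2, which lay above EV. Cct7 rose by 0.13 (SE 0.031, adjusted p = 0.00174) in LAC, which held in all 21 alternatives, and rose by 0.075 (SE 0.031, adjusted p = 0.0483) in WTHK2. Between WTHK2 and LAC, Cct7 did not pass (adjusted p = 0.259). Cct7 lost its call in WTHK2 without EV replicate 1, 2 or 3, WTHK2 replicate 1, 2 or 3, or LAC replicate 1 or 3, and in 2 other settings (adjusted p = 0.0505 to 0.165).

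Cct5 was measured at 471, 476 and 473 CPM in the EV libraries, 502, 496 and 500.3 in those labelled WTHK2 and 535, 492 and 533 in LAC, with EV the lowest group. Cct5 rose by 0.13 (SE 0.035, adjusted p = 0.00412) in LAC, held in all 21 alternatives, and stood at 0.077 (adjusted p = 0.0788) in WTHK2. Cct2 was measured at 407, 412 and 407 CPM in the EV libraries, 438, 434 and 426 in those labelled WTHK2 and 434, 433 and 419.9 in LAC, and Cct8 at 549.9, 548 and 541 CPM in the EV libraries, 573, 579.8 and 558 in those labelled WTHK2 and 581, 580.1 and 575 in LAC. Neither had an EV library as high as any other. Cct2 rose by 0.081 (SE 0.033, adjusted p = 0.0462) in WTHK2, and Cct8 rose by 0.082 (SE 0.031, adjusted p = 0.035) in LAC. Cct2 lost its call in WTHK2 without EV replicate 1, 2 or 3, or WTHK2 replicate 1, 2 or 3, and in 2 other settings (adjusted p = 0.0553 to 0.123). Cct8 lost its call in LAC without EV replicate 1, 2 or 3, or LAC replicate 1 or 3, and in 3 other settings (adjusted p = 0.0523 to 0.182). Cct4 did not pass (0.014 and 0.059). HSPD1 (HSP60), the chaperonin of mitochondria and the single member of its list, was measured at 919, 939.7 and 924 CPM in the EV libraries, 857, 905 and 838 in those labelled WTHK2 and 849, 908 and 889 in LAC. In contrast to the cytosolic subunits, all 6 libraries outside EV lay below it. HSPD1 fell by 0.098 (SE 0.035, adjusted p = 0.0272) in WTHK2 and stood at -0.073 (adjusted p = 0.0899) in LAC. HSPD1 lost its call in WTHK2 without EV replicate 1, 2 or 3, or WTHK2 replicate 1 or 3, and in 2 other settings (adjusted p = 0.0557 to 0.157). The difference between HSPD1 and the cytosolic subunits was not tested.

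Prefoldin was the 1 role list of 14 with all its measured members, 4 of 4, called higher in both comparisons. Its median log2 difference was 0.27 in WTHK2 and 0.33 in LAC. Among all genes, 21.0% were called higher in WTHK2 and 22.4% in LAC. Whether prefoldin departs from these shares was not tested. Pfdn6 was measured at 184, 169 and 179 CPM in the EV libraries, 231, 212 and 219 in those labelled WTHK2 and 237, 219.6 and 236 in LAC, and the lowest of the other 6 libraries lay well above the highest EV library. Pfdn6 rose by 0.31 (SE 0.045, adjusted p = 1.64e-05) in WTHK2 and by 0.38 (SE 0.045, adjusted p = 2.47e-06) in LAC, the largest rise of a member in LAC, with neighbouring genes at medians of 0.12 and 0.11. Pfdn4 was measured at 77.2, 87.3 and 85.1 CPM in the EV libraries, 106, 101 and 97.9 in those labelled WTHK2 and 103, 97.9 and 107 in LAC. The EV libraries again formed the lowest group. Pfdn4 rose by 0.29 (SE 0.054, adjusted p = 0.000239) in WTHK2 and by 0.30 (SE 0.054, adjusted p = 0.000172) in LAC, and the 4 calls of these 2 genes held in all 21 alternatives.

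Pfdn1 was measured at 61.8, 50.4 and 54.2 CPM in the EV libraries, 65.6, 67.6 and 63.3 in those labelled WTHK2 and 72.2, 64.3 and 72.1 in LAC, with EV replicate 1 close to the lowest of the other libraries. Pfdn1 rose by 0.24 (SE 0.068, adjusted p = 0.00672) in WTHK2 and by 0.32 (SE 0.068, adjusted p = 0.00064) in LAC. Pfdn5 was measured at 82.4, 87.7 and 85.3 CPM in the EV libraries, 97.7, 96.9 and 92.6 in those labelled WTHK2 and 104, 101 and 117 in LAC. The 3 groups did not overlap, with LAC the highest and EV the lowest, though Pfdn5 did not pass between WTHK2 and LAC (adjusted p = 0.0503). Pfdn5 rose by 0.17 (SE 0.054, adjusted p = 0.0164) in WTHK2 and by 0.33 (SE 0.054, adjusted p = 7.36e-05) in LAC. Pfdn1 lost its call in WTHK2 without EV replicate 2 (adjusted p = 0.06). Pfdn5 lost its call in WTHK2 without EV replicate 1 (adjusted p = 0.0786). Both LAC calls held throughout. The 4 mean differences came from genes that do not lie next to one another. In WTHK2 and LAC, their neighbours had medians of 0.063 and 0.032 for Pfdn1 and 0.12 and 0.11 for Pfdn6. The medians were -0.041 and -0.028 for Pfdn4 and 0.023 and 0.040 for Pfdn5. The part of the neighbourhood in these rises was not tested.

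**Figure D3:**
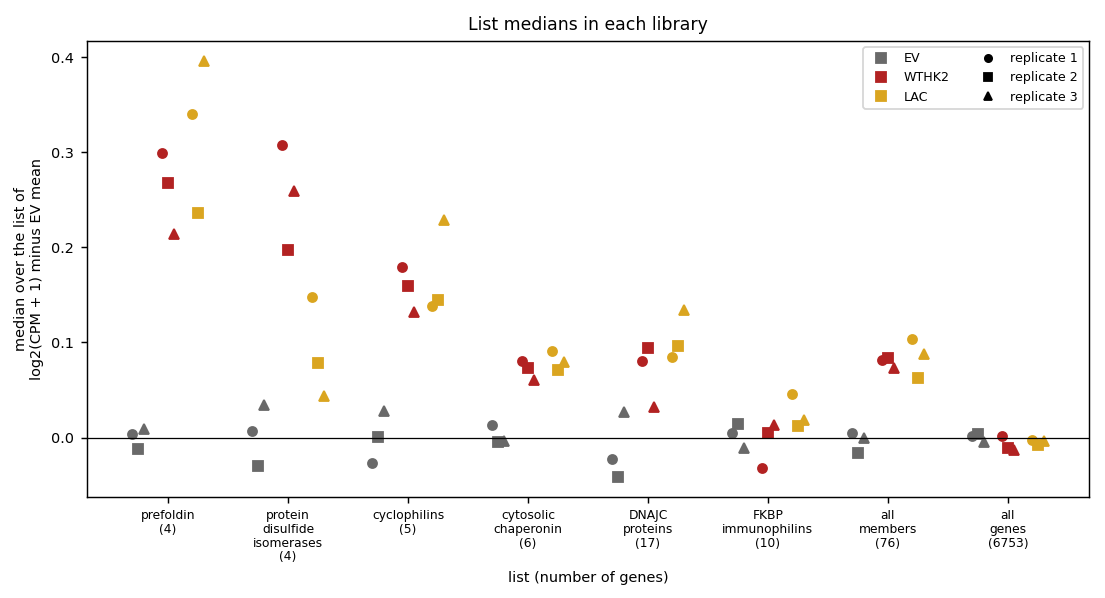
Median over the genes of each list of log2(CPM + 1) minus that gene's EV mean, 1 point for each library, with colour for the group and symbol for the replicate. The prefoldin medians lie above 0.2 in all 6 libraries outside EV, those of the protein disulfide isomerases are higher in WTHK2 than in LAC, and the medians over all 6753 genes lie between -0.013 and 0.0032.

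Of the 5 cyclophilins, 3 were higher in WTHK2 and 4 in LAC, where 21.0% and 22.4% of all genes were called higher. PPIA, the abundant cytosolic cyclophilin and target of cyclosporin, was measured at 2025, 2006 and 2074 CPM in the EV libraries, 2336, 2416 and 2354 in those labelled WTHK2 and 2405, 2250.2 and 2385 in LAC. All 6 libraries outside EV were higher. PPIA rose by 0.22 (SE 0.033, adjusted p = 2.62e-05) in WTHK2 and by 0.21 (SE 0.033, adjusted p = 4.93e-05) in LAC. Under quantile normalization its LAC difference became 0 and the WTHK2 difference 0.085: the gene holds rank 11 in all EV and LAC libraries, so that this setting gives them 1 value. PPIA has many processed copies in mammalian genomes, and how reads that match several places were counted is not given in the sources used here. Ppib, the cyclophilin of the endoplasmic reticulum, was measured at 271, 264 and 294 CPM in the EV libraries, 351, 308 and 339 in those labelled WTHK2 and 356, 317 and 342 in LAC. EV was the lowest group, and the other groups overlapped. Ppib rose by 0.27 (SE 0.051, adjusted p = 0.000261) in WTHK2 and by 0.29 (SE 0.051, adjusted p = 0.000111) in LAC, and both calls held in all 21 alternatives.

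Ppic, a second cyclophilin of the secretory pathway, was measured at 90.4, 93.5 and 96.6 CPM in the EV libraries, 106, 107 and 102 in those labelled WTHK2 and 103, 96.5 and 110.4 in LAC, and LAC replicate 2 fell within the EV range. Ppic rose by 0.17 (SE 0.052, adjusted p = 0.0117) in WTHK2 and by 0.14 (SE 0.052, adjusted p = 0.0301) in LAC. Ppic lost its call in WTHK2 without EV replicate 1 (adjusted p = 0.0637). Ppic lost its call in LAC without EV replicate 1 or 2, or LAC replicate 1 or 3, and in 1 other setting (adjusted p = 0.0504 to 0.182). Without LAC replicate 3 its LAC difference was 0.090. Ppie, a spliceosome-associated cyclophilin, was measured at 75.7, 80.5 and 77.3 CPM in the EV libraries, 80.0, 81.6 and 77.9 in those labelled WTHK2 and 85.7, 86.8 and 88.1 in LAC. Its LAC libraries lay above both other groups, though Ppie did not pass between WTHK2 and LAC (adjusted p = 0.0985). Ppie rose by 0.16 (SE 0.048, adjusted p = 0.011) in LAC and stood at 0.036 (95% interval -0.064 to 0.14) in WTHK2. Ppie lost its call in LAC without EV replicate 1 (adjusted p = 0.0534). Ppig, another nuclear cyclophilin, did not pass (0.0055 and 0.078).

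The 10 FKBP members did not move in 1 direction, and their median lay near 0, with a sign that changed with the scaling. In WTHK2, 3 were higher and 2 lower, and in LAC 4 were higher and 3 lower. The shares of all genes called in either direction were 46.4% and 49.5%. Fkbp10, which folds procollagen in the endoplasmic reticulum, was measured at 221, 223 and 217 CPM in the EV libraries, 291, 275 and 288 in those labelled WTHK2 and 255, 237 and 244 in LAC. WTHK2 was the highest group, LAC lay between, and none overlapped. Fkbp10 rose by 0.37 (SE 0.039, adjusted p = 4e-07) in WTHK2 and by 0.15 (SE 0.039, adjusted p = 0.00264) in LAC. Its neighbours in the genome had a median difference of 0.16 in WTHK2 and 0.043 in LAC, as did those of Dnajc7. Fkbp11, an FKBP of secretory cells, was measured at 69.0, 72.7 and 69.6 CPM in the EV libraries, 88.5, 85.8 and 85.1 in those labelled WTHK2 and 86.0, 88.3 and 87.4 in LAC. Fkbp11 rose by 0.29 (SE 0.048, adjusted p = 6.87e-05) in WTHK2 and by 0.30 (SE 0.048, adjusted p = 4.2e-05) in LAC, with all 6 libraries above EV. Fkbp2, also of the endoplasmic reticulum, was measured at 61.3, 58.9 and 63.2 CPM in the EV libraries, 74.2, 68.8 and 72.9 in those labelled WTHK2 and 79.7, 69.5 and 75.4 in LAC. Fkbp2 rose by 0.23 (SE 0.058, adjusted p = 0.00288) in WTHK2 and by 0.29 (SE 0.058, adjusted p = 0.000454) in LAC, and the 6 calls of these 3 genes held in all 21 alternatives.

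Fkbp15, linked to the actin skeleton and early endosomes, was measured at 43.4, 43.0 and 42.6 CPM in the EV libraries, 38.5, 38.5 and 37.5 in those labelled WTHK2 and 35.5, 37.3 and 38.8 in LAC. All libraries outside EV were below it. Fkbp15 fell by 0.17 (SE 0.063, adjusted p = 0.0337) in WTHK2 and fell by 0.21 (SE 0.063, adjusted p = 0.0103) in LAC. Fkbp15 lost its call in WTHK2 without EV replicate 1, 2 or 3, or WTHK2 replicate 1, 2 or 3, and in 1 other setting (adjusted p = 0.0558 to 0.0919). Fkbp15 lost its call in LAC without LAC replicate 1 (adjusted p = 0.0524). Fkbp9, of the endoplasmic reticulum, fell by 0.13 and 0.14. Fkbp9 lost its call in WTHK2 without WTHK2 replicate 2, and in 2 other settings (adjusted p = 0.0542 to 0.0703). Fkbp9 lost its call in LAC without LAC replicate 1 (adjusted p = 0.0565). Fkbp5, a co-chaperone of HSP90 induced by glucocorticoids, fell by 0.19 in LAC and stood at -0.056 in WTHK2, and Fkbp8, of the mitochondrial outer membrane, rose by 0.097 in LAC and stood at 0.028 in WTHK2. Neither passed between WTHK2 and LAC (adjusted p = 0.181 and 0.256). Fkbp5 lost its call in LAC without EV replicate 1 or 2, or LAC replicate 1 or 3, and in 2 other settings (adjusted p = 0.0544 to 0.137). Fkbp8 lost its call in LAC without EV replicate 1, 2 or 3, WTHK2 replicate 2, or LAC replicate 1 or 3, and in 2 other settings (adjusted p = 0.051 to 0.242). The HSP90 co-chaperone Fkbp4 (-0.060 and -0.012), the rapamycin target Fkbp1a (-0.081 and -0.013) and Fkbp14 (0.12 and 0.010) did not pass.

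The 4 protein disulfide isomerases were all called higher in WTHK2, with a median log2 difference of 0.25. In LAC 2 of them were, with a median of 0.10. The shares of all genes called higher were 21.0% in WTHK2 and 22.4% in LAC. Pdia4 (ERp72) was measured at 296, 296 and 312 CPM in the EV libraries, 397, 364 and 365 in those labelled WTHK2 and 336, 319.6 and 314 in LAC. The libraries labelled WTHK2 were the highest, LAC was just above EV, and no groups overlapped. Pdia4 rose by 0.32 (SE 0.041, adjusted p = 4.79e-06) in WTHK2 and by 0.10 (SE 0.041, adjusted p = 0.0434) in LAC. Pdia4 lost its call in LAC without EV replicate 1 or 2, or LAC replicate 1, and in 3 other settings (adjusted p = 0.0617 to 0.191). The 7 listed neighbours of Pdia4 had medians of 0.22 and 0.20. Pdia6 (P5), an isomerase that also acts on stress sensors of this compartment, was measured at 757, 741 and 781 CPM in the EV libraries, 963, 877 and 922 in those labelled WTHK2 and 834, 813 and 817 in LAC, in the same order of groups. Pdia6 rose by 0.28 (SE 0.036, adjusted p = 4.79e-06) in WTHK2 and by 0.11 (SE 0.036, adjusted p = 0.0131) in LAC. Pdia6 lost its call in LAC without EV replicate 2, and in 1 other setting (adjusted p = 0.0672 to 0.079).

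Pdia3 (ERp57), which works on glycoproteins together with calnexin and calreticulin, was measured at 644, 627 and 637 CPM in the EV libraries, 769, 724 and 751 in those labelled WTHK2 and 679, 668 and 648 in LAC. The 3 groups kept apart, with WTHK2 the highest. Pdia3 rose by 0.23 (SE 0.033, adjusted p = 1.54e-05) in WTHK2, and its LAC difference of 0.064 (adjusted p = 0.115) did not pass. Pdia5 rose by 0.18 (adjusted p = 0.0202) in WTHK2 and stood at 0.099 in LAC. Unlike Pdia3, Pdia5 did not pass between WTHK2 and LAC (adjusted p = 0.424). Pdia5 lost its call in WTHK2 without EV replicate 2, or WTHK2 replicate 1 or 2 (adjusted p = 0.0532 to 0.106). The WTHK2 calls of Pdia3, Pdia4 and Pdia6 held in all 21 alternatives.

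Compared directly, the libraries labelled WTHK2 and LAC differed in 9 members, 7 higher and 2 lower in WTHK2. This is 11.84% of the members, beside 16.1% of all genes called (8.37% higher and 7.76% lower), a lower share than among all genes. The median member stood at -0.0068. In 11 members the 3 WTHK2 libraries lay wholly above LAC and in 7 wholly below, where 29.0% of all genes did not overlap, 14.5% in each direction. The higher members included 5 of the endoplasmic reticulum: Hsp90b1 (by 0.24, adjusted p = 0.000454), Pdia4 (0.21, 0.000971), Fkbp10 (0.21, 0.000648), Pdia3 (0.17, 0.00133) and Pdia6 (0.16, 0.00317). All 5 had estimates above EV in LAC as well, smaller than in WTHK2, and Pdia3 alone did not pass there. Dnajc5 was higher in WTHK2 by 0.24 (SE 0.066, adjusted p = 0.0181), between LAC and EV. Dnajc5 lost its call between the groups without WTHK2 replicate 2 or 3, or LAC replicate 3 (adjusted p = 0.0512 to 0.109). Bag3, which sorts HSP70 clients for autophagy, was higher by 0.17 (SE 0.042, adjusted p = 0.00912), with 153, 149.6 and 149 CPM in WTHK2, 139, 129.8 and 132 in LAC and 139, 143 and 145 in EV.

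The 2 members lower in WTHK2 than in LAC were Dnajc2, which stood at -0.17 (SE 0.039, adjusted p = 0.00577), and Stip1, at -0.11 (SE 0.033, adjusted p = 0.0269). In both, the WTHK2 values were those of EV and LAC was the group that stood apart. Stip1 lost its call between the groups without WTHK2 replicate 3, or LAC replicate 1, and in 4 other settings (adjusted p = 0.0723 to 0.127). Dnajc2 and 6 of the 7 higher members held in all 21 alternatives, though quantile normalization lowered the difference of Hsp90b1 to 0.14 (adjusted p = 0.0424). Stip1, next to Dnajc4 in the order of listed genes, lies in a stretch of the genome whose 14 listed neighbours had a median of -0.12 in this comparison and 0.18 in LAC against EV. Fkbp10 lies in a stretch with a median of 0.17, and Hsp90b1 in one with a median of -0.033. The count of 2 lower members was 1 without WTHK2 replicate 3 or LAC replicate 1 and 5 without LAC replicate 2. With both first replicates left out, 8 members were higher and 2 lower.

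**Figure D4:**
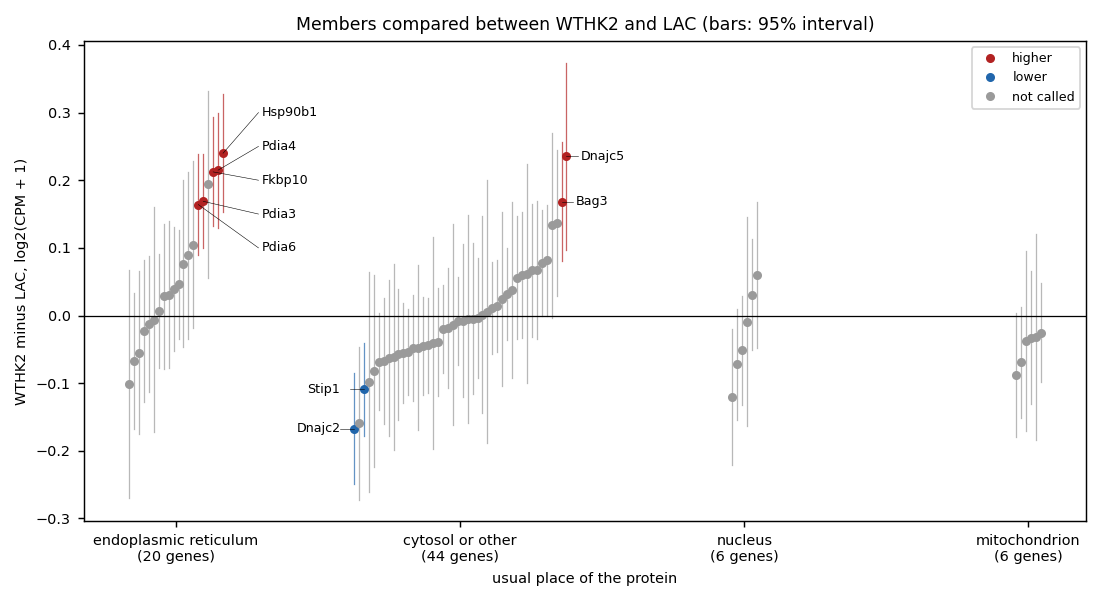
Difference between the libraries labelled WTHK2 and LAC in log2(CPM + 1) for the 76 members, grouped by the usual place of the protein and ordered by size; bars are 95% intervals and names mark the 9 called members. Of the 7 higher members, 5 are among the 20 genes of the endoplasmic reticulum, and no member of the nucleus or the mitochondrion was called.

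By the usual place of the protein, assigned from background knowledge, 20 members belong to the endoplasmic reticulum, 44 to the cytosol or another place, 6 to the nucleus and 6 to the mitochondrion. The counts below stand beside 21.0% of all genes called higher and 25.4% lower in WTHK2, and 22.4% and 27.1% in LAC. In WTHK2 against EV, 11 of the 20 endoplasmic reticulum members were higher and 3 lower, and their median log2 difference was 0.17. The 44 cytosolic and other members had 15 higher and 4 lower, with a median of 0.076. In LAC the endoplasmic reticulum members had 9 higher and 4 lower, with a median of 0.10, and the cytosolic and other members 18 and 6, with 0.081. The median over the endoplasmic reticulum members in single libraries was 0.20, 0.16 and 0.16 above the EV mean in WTHK2 and 0.13, 0.079 and 0.075 in LAC, so the 2 groups did not overlap in it. For the cytosolic and other members the same medians were 0.074, 0.071 and 0.062 in WTHK2 and 0.091, 0.056 and 0.069 in LAC, which overlapped. Whether the places differ was not tested. Of the nuclear members, 2 were higher in WTHK2 and 3 in LAC and 0 were lower. The mitochondrial members had 1 higher and 1 lower in WTHK2 and 3 higher in LAC.

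Other genes of the same pathways, listed by hand, gave a setting for these counts. Over all genes, 21.0% were called higher and 25.4% lower in WTHK2, and 22.4% and 27.1% in LAC. Between WTHK2 and LAC, 8.37% were higher and 7.76% lower. Whether any list departs from these shares was not tested. Of 26 further folding factors of the endoplasmic reticulum in the table, 12 were higher and 5 lower in WTHK2 and 14 and 5 in LAC, with median log2 differences of 0.11 and 0.11. Directly compared, 8 were higher and 4 lower in WTHK2 than in LAC. Serpinh1 (HSP47), the collagen chaperone, had 318 ± 9.46 CPM in the EV libraries, 451 ± 3.69 in those labelled WTHK2 and 355 ± 4.26 in LAC (SD, n = 3 each). It rose by 0.50 in WTHK2 (adjusted p = 2.18e-09) and rose by 0.16 in LAC (adjusted p = 0.000753). Sil1, the exchange factor for the HSP70 of the endoplasmic reticulum, had 21.1 ± 2.60 CPM in the EV libraries, 29.3 ± 1.03 in those labelled WTHK2 and 26.3 ± 1.46 in LAC, and rose by 0.47 and 0.31. Of 32 further cytosolic partners, 6 were higher and 3 lower in WTHK2 and 11 and 2 in LAC. Hypk, a ribosome-associated chaperone, rose by 0.26 and 0.27, and Nudcd3, an HSP90 co-chaperone, fell by 0.25 and 0.28. Of 17 further mitochondrial chaperones and proteases, 7 were higher and 1 lower in WTHK2 and 9 and 2 in LAC. Tomm40, the channel of protein import, rose by 0.26 and 0.30, and the protease subunit Afg3l1 fell by 0.34 and 0.49.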

How the data were processed

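RNA sequencing had been done by the submitters on 9 libraries, 3 in each of EV, WTHK2 and LAC. Per the submitters' processing notes, the tools used, in no stated order, were STAR 2.7.0a, featureCounts 2.0.1, edgeR 3.8, cutadapt 1.18 and FastQC 0.11.8. No source used here gives the build, the annotation, or how strand and multiply mapped reads were treated. The authors deposited normalized CPM for 6753 genes, with a lowest gene mean of 20.4 CPM and columns that sum to 80.3% to 81.4% of what the unit implies; genes below that level are not analysed here. Within a tolerance of 0.01 each library's values were whole multiples of 1 step, which gave the effective library sizes, and precision is limited by counting error in low members and by the spread between 3 libraries.

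Using limma 3.58.1 (R 4.3.3), 1 model without covariates was fitted to log2(CPM + 1) of all genes in the 9 libraries, with a trend of variance on level. A filter at a mean of 1 CPM removed 0 genes. The pseudocount slightly understates differences of low genes. Tests were two-sided, with Benjamini-Hochberg adjustment over all genes and a threshold of 0.05. SE is the moderated standard error. The fit was checked on simulated data with 200 changed genes, fewer than were called here. Of simulated 1.2-fold changes, 61% were called in WTHK2 with EV, 63% in LAC with EV and 76% in WTHK2 with LAC. False calls made up 4.82%, 7.39% and 4.35% of the calls. A member that did not pass may therefore still differ. Python 3.11.15 with pandas 2.3.3, numpy 2.4.6 and matplotlib 3.10.9 made the counts and figures. A call was said to hold when it was made in the same direction in 21 alternative settings. Among these, no filter and a filter at a mean of 5 CPM kept every gene and so repeat the main fit. Members are all genes that match the symbol rule. Roles, places in the cell and comparison lists were written by hand from background knowledge, and the members and lists were chosen with earlier results of these data known.

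Values in every library are given for Hsf1, Hsf2, Hsph1, Hsp90aa1, HSPD1, TCP1, Stip1 and PPIA, for up to 3 called members with the largest difference in each role and comparison with EV (where none was called, the member with the highest mean), and for the largest differences between WTHK2 and LAC, up to 5 each way; Bag3, the sixth of these upward, was added after its values were seen. From the other lists up to 4 called genes with the largest difference could be named. Neighbouring genes, up to 7 listed ones on each side, were found through the RefSeq gene order of CriGri-PICRH-1.0. They were matched by symbol for 6149 genes (91.1%) and 74 of the 76 members. No coordinates were used otherwise. Neighbour medians are given for some members only, and their part in a member's difference was not tested.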

Additional observations from a re-analysis of the deposited data

How the results depend on the processing

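The 6 counts of called members stayed within 1.5 times their main values under pseudocounts 0.25 and 4, a robust fit and voom. No filter and a filter at a mean of 5 CPM kept every gene, the lowest mean being 20.4 CPM. Both settings therefore repeat the main fit and could not change a call. Voom used reads recovered from the CPM steps and was added after the data were seen. The planned edgeR test on those reads was not run. In the comparison of WTHK2 and EV, the 8 lower members became 2 with libraries rescaled to the same median and 4 with no variance trend, and with 1 library left out they ranged from 3 to 9. The 10 lower members in LAC ranged from 6 to 10 with 1 library left out. The 2 members lower in WTHK2 than in LAC became 1 under quantile normalization, 1 in a fit of the 6 libraries of the comparison and 1 with no variance trend, and ranged from 1 to 5 with 1 library left out. Of 29 members higher in WTHK2 than in EV, 18 held in every alternative, as did 2 of 8 lower, 18 of 33 higher in LAC, 4 of 10 lower in LAC, 6 of 7 higher in WTHK2 than in LAC and 1 of 2 lower.

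Of 1974 values of single named members under the alternatives, 1799 kept their direction and side of the threshold. The 1974 include those of the filter settings, which repeat the main fit. A call was lost in 134 and gained in 18, and the sign changed in 23. Only 1 of the 23 had been called, PPIA in LAC, which was 0 under quantile normalization. The same median gave Dnaja2 0.0090 in WTHK2 and 0.033 in LAC, Dnajc2 0.018 in WTHK2 and Hsf2 0.028 in WTHK2. Quantile normalization gave Hsf2 0.0081 and Stip1 -0.019 in WTHK2 and Dnaja2 0.0099 in LAC. With both first replicates out, Dnaja2 was 0.0039 in WTHK2 and 0.0031 in LAC, and Hsf2 was 0.023 in WTHK2 and -0.059 in LAC. With 1 library left out, Dnaja2 ranged from -0.062 to 0.0039 in WTHK2 and from -0.028 to 0.0033 in LAC, Hsf2 from -0.034 to 0.023 and from -0.059 to 0.086, Stip1 from -0.0051 to 0.032 in WTHK2 and Hspb8 from -0.0082 to 0.037 in LAC. The cause was not tested for any of these.

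With the replicate number as a block, 29 members were higher and 9 lower in WTHK2 against EV, 35 and 10 in LAC against EV, and 9 and 3 in WTHK2 against LAC. Deviations of libraries with the same number correlated over genes at 0.0756, 0.141 and -0.0057 between EV and WTHK2, at 0.0175, 0.207 and 0.0305 between EV and LAC, and at 0.437, 0.251 and 0.0733 between WTHK2 and LAC, so not every pair passed 0.1 and the number was not taken as a pairing, although the first and second replicates of WTHK2 and LAC deviated together. Not every library correlated best with its own number: EV replicate 3 correlated at 0.133 with WTHK2 replicate 1. Between WTHK2 and LAC, libraries with different numbers correlated at -0.335 to 0.186. The main fit leaves out any shared effect of the number in these groups. Counting error, 5.03% at the fewest reads of a member in a library, limits differences of a few percent in the low members.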
